A study of Mus musculus with 18 samples.

Results

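The genes for the proteins of the cytosolic ribosome were examined in RNA from the mouse heart apex at day 1 of infarction. Members were the gene rows whose symbol names a protein of the 40S or 60S subunit (Rps or Rpl with a number, Rplp0 to Rplp2, and Rpsa) and whose mean over 18 libraries was at least 1 FPKM, a count of fragments scaled by transcript length and library total. They were 81 of 19197 gene rows. The symbol pattern matched 84 rows, and the 3 below the minimum were Rpl32l (mean 0.736 FPKM), Rpl39l (0.169) and Rpl10l (0.00611), the last 2 being copies known from the testis. The nearest row above the minimum was Rps6, at a mean of 14.5 FPKM.

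All animals were C57BL/6 mice, and the 18 libraries formed 3 groups of 6. The sham_vehicle group had a sham operation and received vehicle. The MI_vehicle group had a myocardial infarction and received vehicle. The MI_DCA group had an infarction and received DCA, 10 mg/kg a day. DCA is not written out in the labels and is taken as deoxycholic acid, a bile acid, because the study names it beside TGR5, the membrane bile acid receptor. The hearts had been flushed with PBS, RNA came from the apex, and coding transcripts were enriched by capture before 50-base reads were sequenced. Read totals were not used here; the steps between low values put the depth at about 9500000 to 10700000 reads in the sham libraries, 11100000 to 13900000 in MI_vehicle and 10200000 to 13000000 in MI_DCA. The ranges of sham and MI_vehicle did not overlap, and the part of depth in their differences was not tested. Whether every library is a separate mouse is not stated in the labels, nor are age and sex, so the p-values measure the spread between these libraries, which may in part be technical.

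Each ribosome holds 1 copy of almost every ribosomal protein, and the stalk proteins Rplp1 and Rplp2 are present in more. The proteins are made in the cytosol, imported into the nucleolus and assembled there on ribosomal RNA with the help of a large set of biogenesis factors. Many of their mRNAs begin with a C followed by an unbroken run of pyrimidines, the 5′ terminal oligopyrimidine (TOP) tract, through which the mTORC1 pathway and the RNA-binding protein LARP1 set how much they are translated. Striated muscle has a variant of its own, Rpl3l, which takes the place of Rpl3 in the large subunit of heart and skeletal muscle ribosomes.

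The start tracts are shown because they are the best known sequence shared by the family and were not used to choose its members. RefSeq promoter entries (GRCm38.p6) were found for 61 of the 81 genes, and none for the other 20, among them Rpl3, Rpl7, Rpl23a, Rpl29, Rplp1, Rps20 and Rps29. A tract, taken as C at an annotated start followed by at least 4 more C or T, stood in 13 of the 61 genes (21.3%), against 3.01% of all 27025 genes with an entry. Annotated starts can lie a few bases from the base where transcription begins, so the lack of a tract at an annotated start says only that these letters are not there. The windows below run 5′ to 3′ on the gene's own strand, from 20 bases before the annotated start to 20 bases from it on, with the tract in capitals. A tie at 8 bases was broken by name, with Rpl28 shown and Rpl35a, Rpl38 and Rps15a not. Apart from that tie the windows are the 6 longest tracts, followed by Rpl3l and Rpl22l1, paralogs that had no tract at the annotated start. They lie at chr14:18270967-18271006 (Rpl15, minus strand), chr2:39005112-39005151 (Rpl35, minus), chr17:27635225-27635264 (Rps10, minus), chr17:33955646-33955685 (Rps18, minus), chr4:86857348-86857387 (Rps6, minus), chr7:4792945-4792984 (Rpl28, plus), chr17:24727806-24727845 (Rpl3l, plus, the first of its annotated starts) and chr3:28805488-28805527 (Rpl22l1, plus).
Rpl15: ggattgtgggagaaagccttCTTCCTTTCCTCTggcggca
Rpl35: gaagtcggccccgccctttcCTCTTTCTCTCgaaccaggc
Rps10: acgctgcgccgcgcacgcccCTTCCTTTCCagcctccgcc
Rps18: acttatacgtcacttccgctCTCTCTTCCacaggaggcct
Rps6: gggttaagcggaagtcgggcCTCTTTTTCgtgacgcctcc
Rpl28: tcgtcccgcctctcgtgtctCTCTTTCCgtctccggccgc
Rpl3l: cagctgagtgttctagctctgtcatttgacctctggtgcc
Rpl22l1: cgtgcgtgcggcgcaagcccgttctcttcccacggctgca

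Other short motifs were counted on both strands of the same entries, from 250 bases before to 50 bases after each start. CCGGAAG, a core recognised by ETS factors such as GABP, was present in 25 of the 61 genes (41.0%) and in 9.93% of all genes. AAGATGG, a core of the YY1 site, was present in 16.4% and 7.28%, and GGGCGG, the GC box, in 62.3% and 38.2%. TATAAA was present in 11.5% of the members and 15.7% of all genes, and CACGTG, the E-box bound by Myc, in 9.84% and 8.09%. A match is a description of the letters and not of a bound site.

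The level of the family is given first as a sum. The 81 members together held 5.29% ± 0.44 (SD, n = 6) of all FPKM in the sham libraries, 8.12% ± 1.37 in the MI_vehicle libraries and 6.89% ± 1.34 in the MI_DCA libraries. The ranges were 4.86% to 6.15%, 5.66% to 9.52% and 5.68% to 9.04%, so the highest sham library lay above the lowest library of either infarcted group. No p is given for this sum. The small subunit genes summed to 0.726 ± 0.018 (SD, n = 6) times the large subunit genes in sham, 0.691 ± 0.013 in MI_vehicle and 0.698 ± 0.011 in MI_DCA libraries. In bulk tissue a different mix of cells and a different amount of RNA per cell cannot be told apart.

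Single libraries stood out for nearly the whole family. Replicate 1 of sham_vehicle, with a sum of 35960 FPKM against 25252 to 27981 in the other 5, was the highest sham library for 72 of the 81 members. Replicate 4 of MI_vehicle, with 30742 against 40101 to 50173, was the lowest MI_vehicle library for 78 of them. Within MI_DCA, replicate 6 (49258) was the highest for 78, and replicates 1, 3 and 5 held 31072 to 34224 against 35975 and 40999 in replicates 4 and 2. In sham replicate 1 other short genes were also high. Relative to each gene's median over the other 5 sham libraries, non-members of up to 600 bases were higher by a median of 0.56 on the log2 scale. The members were higher by 0.38, and non-members over 4000 bases were lower (median -0.11). Erythroid marker genes of sham replicate 1 summed to 2099 FPKM, against 357 to 894 in the other sham libraries. MI_vehicle replicate 4 had summed cardiomyocyte markers of 61236 FPKM, against 35768 to 48935 in the other MI_vehicle libraries and 61127 to 71715 in sham. Results that rest on these libraries are given with and without them.

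**Figure D1:**
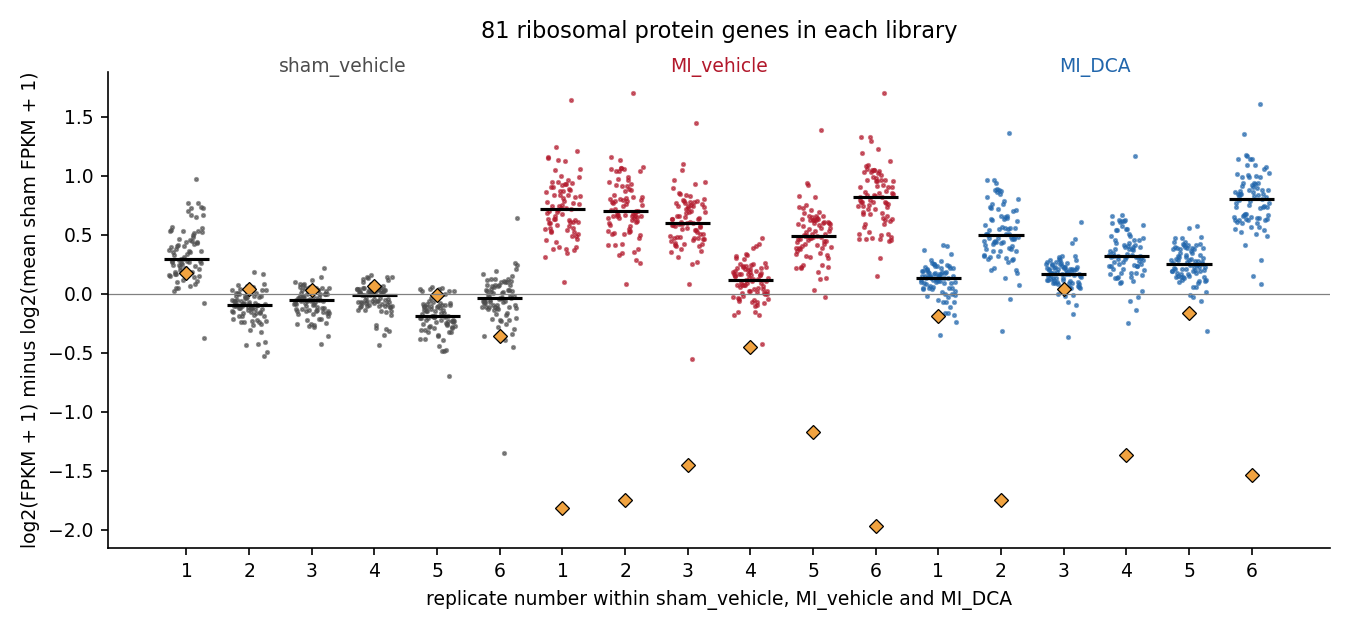
Level of each of the 81 members in each library, as log2(FPKM + 1) minus the log2 of the mean sham FPKM + 1; each dot is 1 gene, black bars are the median over genes and orange diamonds are Rpl3l. Sham replicate 1 sits above the other sham libraries, MI_vehicle replicate 4 sits below the other MI_vehicle libraries, and Rpl3l lies below zero in all 6 MI_vehicle libraries while most members lie above it.

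The first comparison asked what infarction did to these genes in mice given vehicle. Nearly the whole family was higher in the MI_vehicle libraries: 73 of 81 members (90.1%) passed the test upwards, against 38.3% of all 11969 genes tested, and 1 passed downwards, Rpl3l, against 20.1%. All 81 members were tested. Differences are on the scale of log2(FPKM + 1), and a gene was called where limma's moderated test gave a Benjamini-Hochberg adjusted p under 0.05 over all genes. The members' median log2 fold change was 0.58, or 1.498-fold, beside 0.12 over all genes tested, and 80 of 81 were positive against 60.8% of all genes. Complete separation of the groups was near the share of all genes: it was seen upwards in 12 members (14.8%), against 16.1% of all genes, and downwards in 1, Rpl3l, against 5.74%. Without sham replicate 1 and MI_vehicle replicate 4, which set most of the overlap, 75 members were separated upwards against 33% of all genes, 79 were called higher against 41.4%, and the median was 0.74. Without sham replicate 1 alone 49 were separated upwards, against 18.6% of all genes, and without MI_vehicle replicate 4 alone 54, against 31.2%. Both libraries were picked because the members themselves stood apart in them. The higher counts without them are therefore no support for the rise, and the shares of all genes are no fair measure beside them. Scaling moved the share of all genes on each side: with median-ratio size factors 28.2% were called higher and 28.7% lower, and the median over all genes moved from 0.12 to 0.00. Relative to that shift 61 members were still called higher and 1 lower, with a median of 0.44, and 79 of 81 were positive; the second negative gene was Rps29, at -0.03, which was not called.

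Both subunits took part. Of 31 core small subunit genes 28 were called higher (median log2 fold change 0.54, range 0.12 to 0.99), and of 46 core large subunit genes 42 (median 0.62, range 0.29 to 1.39). The acidic stalk proteins Rplp0, Rplp1 and Rplp2, which recruit elongation factors to the ribosome, were all called higher (0.56, 0.58 and 0.37). The 13 genes with a tract at an annotated start had a median of 0.58, with 10 called higher. The 48 without one there also had a median of 0.58, with 45 higher and 1 lower. Over all genes 38.3% were called higher and 20.1% lower. Annotated starts can lie a few bases off, so many of the 48 may have a TOP tract. The like medians therefore say nothing on the part of the tract.

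**Figure D2:**
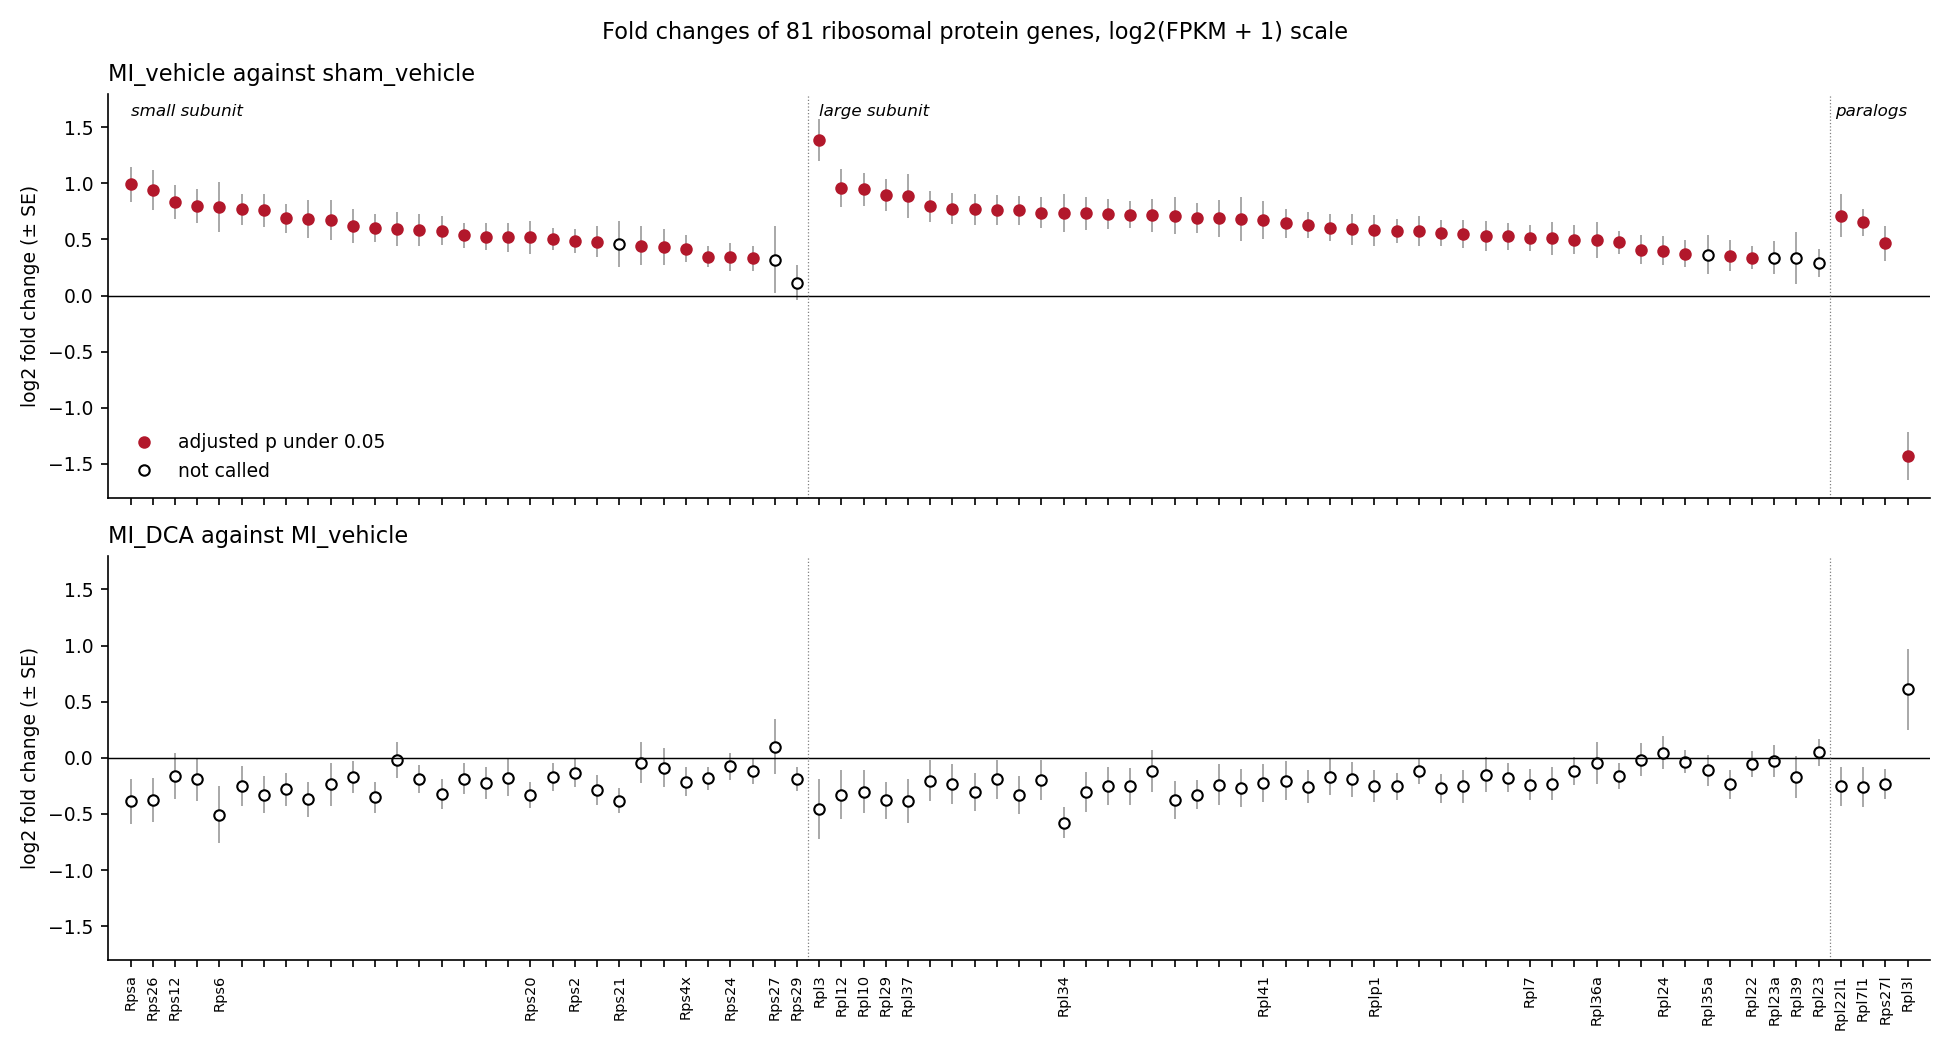
Log2 fold change with its standard error for the 81 members, small subunit left, large subunit in the middle and paralogs right, for MI_vehicle against sham_vehicle (top) and MI_DCA against MI_vehicle (bottom); filled points passed an adjusted p of 0.05, and most genes named in the text are labelled. In the top panel 73 members lie above zero and are filled and Rpl3l lies at -1.43; in the bottom panel no member is filled and 77 of 81 lie below zero.

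Rpl3, a protein of the large subunit that reaches towards the peptidyl transferase centre, had the largest rise of the family (GRCm38.p6 chromosome 15, 80077781 to 80083406). Its level ran from 153 to 178 FPKM in the sham libraries (median 161) and from 220 to 532 in the MI_vehicle libraries (median 479). The groups did not overlap, and the log2 fold change was 1.39 (SE 0.18, limma adjusted p = 0.00012). Rpsa, the small subunit protein also known as the laminin receptor (chromosome 9, 120127766 to 120132369), ran from 326 to 422 FPKM in sham (median 345) and from 443 to 907 after infarction (median 744). It was separated as well (0.99, SE 0.15, adjusted p = 0.00029). Rpl10, which joins the large subunit last and in the cytoplasm (chromosome X, 74270816 to 74273135), ran from 426 to 557 FPKM in sham (median 442) and from 577 to 1057 in MI_vehicle (median 966). Its log2 fold change was 0.95 (SE 0.15, adjusted p = 0.00026), again without overlap. Rpl29 was the other separated gene among the 8 largest rises, at 253 to 396 FPKM in sham and 403 to 722 in MI_vehicle (0.90, SE 0.14, adjusted p = 0.00034).

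The remaining 4 of the 8 largest rises overlapped between groups. Rpl12, at the base of the stalk, ran from 308 to 401 FPKM (median 350) in sham and from 382 to 865 (median 765) in MI_vehicle, with only MI_vehicle replicate 4 inside the sham range (log2 fold change 0.96, SE 0.17). Rps26, which lines the mRNA exit channel, ran from 409 to 723 (median 459) and from 603 to 1227 (median 963; 0.94, SE 0.18). Rpl37, a zinc-binding protein of the large subunit, was lower in level, at 51.9 to 109 FPKM (median 55.8) and 78.0 to 152 (median 123; 0.89, SE 0.20). Rps12, in the head of the small subunit, ran from 315 to 466 (median 379) and from 447 to 816 (median 717; 0.84, SE 0.15). Their limma adjusted p ranged from 0.00058 to 0.0021.

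The highest means of the family, on the FPKM scale over 18 libraries, belonged to Rps2, Rps24, Rpl23a, Rpl41 and Rplp1. Rps2, at the mRNA entry side of the small subunit, was the most abundant row, at 1052 to 1276 FPKM in sham (median 1134) and 1297 to 1915 in MI_vehicle (median 1623), with no overlap (log2 fold change 0.48, SE 0.11, adjusted p = 0.0023). Rps24 rose less, from a median of 800 to 1093 FPKM (0.34, SE 0.12, adjusted p = 0.028). Under median-ratio scaling that call did not hold (adjusted p = 0.15). Rpl41, the shortest ribosomal protein, went from a median of 635 to 1119 FPKM (0.67, SE 0.17, adjusted p = 0.0043). Rplp1 of the stalk went from 628 to 1019 FPKM (0.58, SE 0.14, adjusted p = 0.0029).

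The 7 members that were not called had log2 fold changes from 0.12 to 0.46. They were Rps29 (adjusted p = 0.55), Rps27 (0.37), Rpl39 (0.23), Rpl35a (0.080), Rps21 (0.072), Rpl23 (0.061) and Rpl23a (0.058). Rps29, a zinc-binding protein of the small subunit, had a sham range of 355 to 739 FPKM (median 386) and a MI_vehicle range of 432 to 502 (median 480). Its highest value of all was that of sham replicate 1. Rps21, Rpl35a and Rpl39, the last of which lines the tunnel through which the new chain leaves, also had sham replicate 1 far above the other sham libraries, at 508, 509 and 361 FPKM against at most 239, 306 and 215. Without sham replicate 1 and MI_vehicle replicate 4 together, Rps29 (0.29, adjusted p = 0.012), Rps21 (0.71, adjusted p = 5.4e-05), Rpl35a (0.59, adjusted p = 0.00026), Rpl39 (0.64, adjusted p = 0.0026), Rpl23 (0.42, adjusted p = 0.0044) and Rpl23a (0.47, adjusted p = 0.0037) were called higher, and Rps27 was not. The libraries left out were chosen from the values of the members, so these calls do not replace the result with all libraries. Among the smallest called rises was Rpl22 (0.34, SE 0.10), whose call was lost under median-ratio scaling (adjusted p = 0.088).

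Rpl3l, the muscle paralog of Rpl3, went the other way (chromosome 17, 24727826 to 24736143). It ran from 149 to 216 FPKM in the sham libraries (median 196), from 47.9 to 139 in the MI_vehicle libraries (median 62.5) and from 56.0 to 196 in the MI_DCA libraries (median 120). Sham and MI_vehicle did not overlap, and the log2 fold change was -1.43 (SE 0.21, limma adjusted p = 0.00023); it was called lower in each of the 12 fits that left out 1 library. In sham libraries Rpl3l and Rpl3 were at similar levels per length, with a ratio of 1.18 ± 0.17 (SD, n = 6), and in MI_vehicle libraries the ratio was 0.214 ± 0.210. The ratio ran from 0.835 to 1.28 in sham and from 0.0900 to 0.635 in MI_vehicle, without overlap. The difference in mean log2 ratio was -2.81 (exact permutation of the 12 libraries, two-sided, p = 0.0022, the smallest it can give; adjusted p = 0.019 over 18 tests of 6 pairs in 3 comparisons). MI_vehicle replicate 4 had the highest ratio of its group, at 0.635 against 0.0900 to 0.196 in the other 5.

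**Figure D3:**
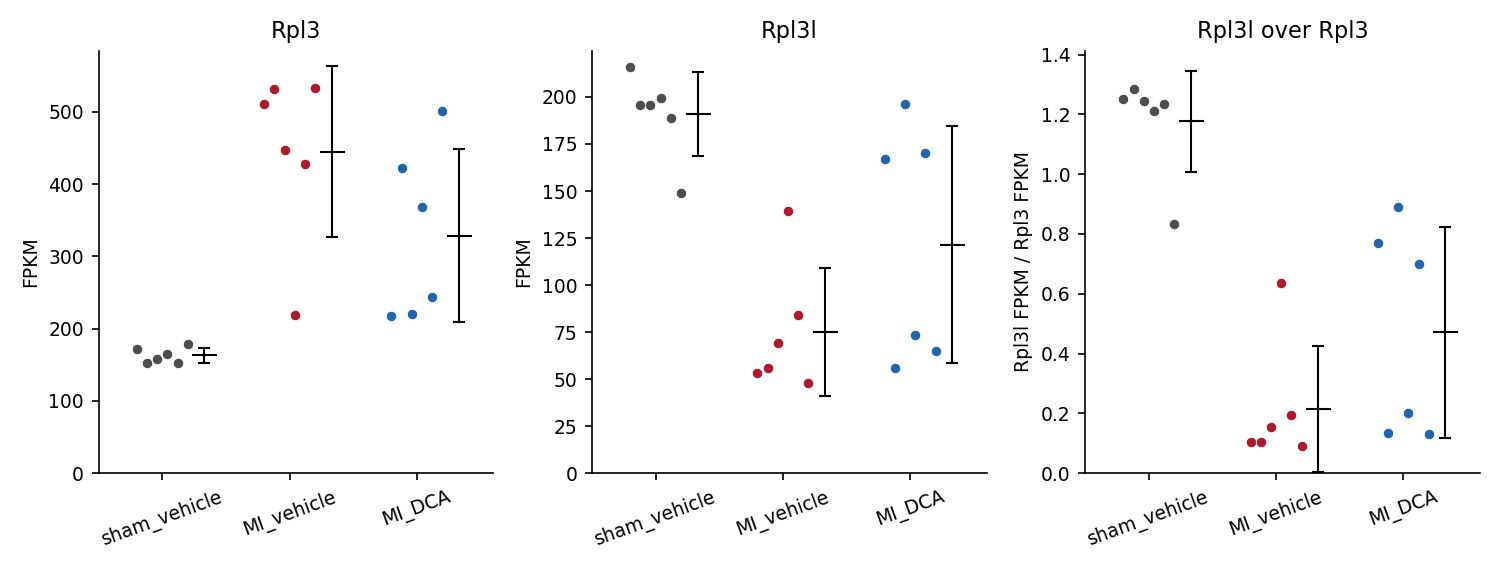
FPKM of Rpl3 and Rpl3l and the ratio of Rpl3l to Rpl3 in each library (dots), with mean and SD (n = 6 per group). The ratio lies between 0.835 and 1.28 in sham, between 0.0900 and 0.635 in MI_vehicle, and between 0.130 and 0.891 in MI_DCA libraries.

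Cardiomyocyte markers moved with Rpl3l. Of 12 such genes, 10 were called lower and 1 higher in MI_vehicle, and their summed level ran from 61127 to 71715 FPKM in sham (median 62781) and from 35768 to 61236 in MI_vehicle (median 42678). All 12 markers of monocytes and macrophages and all 7 tested neutrophil markers were called higher. The macrophage sum ran from 263 to 440 FPKM in sham and from 498 to 1162 in MI_vehicle, and the neutrophil sum from 49.5 to 125 and from 166 to 477. No marker gene was at 0 in all libraries, and 0 of 9 lymphocyte markers reached a mean of 1 FPKM. The part of these cell types in the rise of the family and the fall of Rpl3l was not tested.

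The other paralogs rose with the family. Rpl22l1, the paralog of the RNA-binding protein Rpl22, ran from 24.0 to 51.9 FPKM in sham (median 27.3) and from 31.0 to 62.6 in MI_vehicle (median 53.5; log2 fold change 0.71, SE 0.19, adjusted p = 0.0062). Rpl7l1, a paralog linked to the assembly of the large subunit, went from a median of 21.7 to 38.0 FPKM (0.65, SE 0.12, adjusted p = 0.00073). Rps27l, a paralog known as a p53 target, went from 63.9 to 98.2 (0.47, SE 0.16, adjusted p = 0.021), a call that was lost under median-ratio scaling (adjusted p = 0.091). The ratio of Rpl22l1 to Rpl22 was 0.418 ± 0.090 (SD, n = 6) in sham and 0.542 ± 0.073 in MI_vehicle. That difference of 0.37 on the log2 scale did not pass adjustment (exact permutation p = 0.032, adjusted p = 0.084). It did without sham replicate 1 (0.47, adjusted p = 0.019) or without MI_vehicle replicate 4 (0.44, adjusted p = 0.036). Without any other single library it did not (adjusted p 0.083 to 0.13). Those 2 libraries stand out in the members' own values, so the calls without them are no support for a difference. Of the parents not yet given, Rpl7 (0.51, SE 0.12), Rps4x (0.42, SE 0.12) and Rpl36a (0.50, SE 0.16) were called higher (limma adjusted p 0.0026 to 0.019), and the call of Rpl36a was lost under median-ratio scaling (adjusted p = 0.056). For Rpl7l1 over Rpl7 (0.14, exact permutation adjusted p = 0.29) and Rps27l over Rps27 (0.15, adjusted p = 0.75) no difference passed. Rpl10l and Rpl39l were too low for a ratio, and Rps4l was not analysed here.

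A pair outside the symbol pattern and a muscle pair outside the family were tested with them. Rpl36al, a retrogene copy of Rpl36a, was 0.535 ± 0.082 (SD, n = 6) times Rpl36a in sham and 0.672 ± 0.036 in MI_vehicle (log2 difference 0.34, exact permutation p = 0.0043, adjusted p = 0.019). Without replicate 2, 3 or 5 of MI_vehicle the adjusted p was 0.058. Eef1a2, the elongation factor form of adult muscle and neurons, was 1.06 ± 0.15 times the general form Eef1a1 in sham and 0.492 ± 0.245 in MI_vehicle (log2 difference -1.22, exact permutation p = 0.0043, adjusted p = 0.019). Its ratio in MI_vehicle replicate 4 (0.953) lay inside the sham range.

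The second comparison asked whether DCA changed these genes after infarction. No member was called, and neither was any of the 12004 genes tested (0% in either direction). At an unadjusted p under 0.05 by limma, 9 members were lower (11.1%) and 0 higher, against 9.22% and 1.6% of all genes, so the share of lower members was near that of all genes. No member was called in any of 20 alternative fits, in which the lowest adjusted p of a member was 0.098. Of the 81 members 77 had a negative log2 fold change (95.1%), against 64.8% of all genes, with a median of -0.22 beside -0.06. With median-ratio size factors the median was -0.14 beside 0.01, and 69 members were negative. No member was separated between the groups in either direction, against 0.075% of all genes higher and 0.467% lower. The MI_DCA libraries spread widely: the median coefficient of variation over members was 19.7%, against 17.9% in MI_vehicle and 15.4% in sham. Macrophage markers summed to 297 to 840 FPKM in MI_DCA and 498 to 1162 in MI_vehicle, and cardiomyocyte markers to 35192 to 65977 and 35768 to 61236. Their part in the lower values was not tested.

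The members named for the smallest p were lower with DCA. Rpl34, a protein of the large subunit (chromosome 3, 130726827 to 130730398), ran from 236 to 416 FPKM in MI_vehicle (median 351) and from 208 to 276 in MI_DCA (median 226), so only MI_vehicle replicate 4 lay within the range of the DCA libraries (log2 fold change -0.58, SE 0.14, limma adjusted p = 0.41). The row of its pseudogene Rpl34-ps1 was at 0 in all MI_vehicle libraries and at 183 FPKM in MI_DCA replicate 6, and with both rows added the difference was -0.43 (adjusted p = 0.44). Rps21 ran from 289 to 399 FPKM (median 321) and from 229 to 315 (median 243; -0.38, SE 0.11). Rps20 followed (-0.33, SE 0.12), and the limma adjusted p of these 3 genes was 0.41. Only 4 members were higher with DCA: Rpl3l (0.61, SE 0.36, limma adjusted p = 0.53), Rps27 (0.10), Rpl23 (0.05) and Rpl24 (0.05).

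On average the Rpl3 pair stood between the other groups in the MI_DCA libraries, but single libraries were split. Rpl3 ran from 217 to 501 FPKM (median 306), and its difference from MI_vehicle was -0.46 (SE 0.27, limma adjusted p = 0.52). The ratio of Rpl3l to Rpl3 was 0.470 ± 0.353 (SD, n = 6). It was 0.771, 0.891 and 0.698 in replicates 1, 3 and 5, and 0.133, 0.200 and 0.130 in replicates 2, 4 and 6. The log2 difference from MI_vehicle was 1.07 and did not pass (exact permutation p = 0.12, adjusted p = 0.23). Summed cardiomyocyte markers were 60475, 65977 and 60101 FPKM in replicates 1, 3 and 5, and 35192, 55461 and 42121 in replicates 2, 4 and 6. Macrophage markers summed to 420, 297 and 458 FPKM in the former, and 840, 353 and 728 in the latter. The part of these cell types in the split was not tested. The ratio of Rpl36al to Rpl36a, at 0.591 ± 0.051, was lower than in MI_vehicle by a small step (log2 difference -0.19, exact permutation p = 0.011, adjusted p = 0.039). That call was lost without any of MI_vehicle replicates 2, 3 and 5 (adjusted p = 0.058) and without any of MI_DCA replicates 1, 2, 3, 5 and 6 (adjusted p 0.069 to 0.10). Rpl22l1 over Rpl22 was not called (-0.20, adjusted p = 0.13). It was called without MI_vehicle replicate 4 (-0.27, adjusted p = 0.017), and without no other single library (adjusted p 0.14 to 0.31). MI_vehicle replicate 4 stands out in the members' own values, so the call without it is no support for a difference.

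The third comparison set the MI_DCA libraries against sham, and it shares the sham libraries with the first comparison and the DCA libraries with the second. Of the 81 members 34 were called higher (42.0%), against 15.5% of 11842 genes tested, and 0 lower, against 8.33%. At an unadjusted p under 0.05 by limma the counts were 61 higher and 1 lower, against 26.2% and 15.9% of all genes. The median log2 fold change was 0.38, beside 0.05 over all genes, and 79 members were positive (97.5%, against 56.7% of all genes). Groups did not overlap for 15 members upwards (18.5%), against 6.31% of all genes, and for 0 downwards, against 2.84%. Without sham replicate 1, a library picked from the members' own values, the upward count was 53, against 8.43%. With median-ratio size factors 19 members were called higher, against 11.4% of all genes, and 0 lower, against 11.8%. The number of calls rested on single libraries. It was 55 without sham replicate 1, and 9, 13, 16, 5 and 12 without sham replicates 2 to 6 in that order. Without MI_DCA replicates 1 to 6 in that order it was 50, 9, 48, 12, 33 and 12, and 1 member was called lower without replicate 1, 3 or 5. Over all genes the share called higher also moved, between 6.27% (without sham replicate 5) and 22.0% (without MI_DCA replicate 3). The 5 members called without sham replicate 5 were thus a share near that of all genes.

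Among the same genes, Rpl3 was again the largest rise, with the MI_DCA range of 217 to 501 FPKM above all sham libraries (log2 fold change 0.93, SE 0.20, limma adjusted p = 0.013). Rpl10 (0.64, SE 0.15, adjusted p = 0.018) and Rpl12 (0.63, SE 0.15, adjusted p = 0.019) were separated from sham too. Rpsa overlapped only where the highest sham library met the lowest DCA library, at 326 to 422 FPKM in sham and 418 to 818 in MI_DCA (0.60, SE 0.16, adjusted p = 0.023). Rpl24, which sits near the interface of the subunits, had medians of 684 FPKM in MI_vehicle and 645 in MI_DCA, and was separated from sham (400 to 561 FPKM) in MI_DCA (0.44, SE 0.12, adjusted p = 0.027). Rpl3l differed from sham by -0.82 (SE 0.30, adjusted p = 0.060), and was called lower without MI_DCA replicate 1 (-0.95, adjusted p = 0.035), 3 (-0.99, adjusted p = 0.020) or 5 (-0.95, adjusted p = 0.036). Its ratio to Rpl3 was lower than in sham by 1.75 on the log2 scale (value -1.75, exact permutation p = 0.0043, adjusted p = 0.019), with 1 sham library inside the DCA range. The adjusted p was 0.052 without any of sham replicates 2 to 5 or MI_DCA replicates 1, 2, 5 and 6.

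The reads of this family are hard to place, because its genes have left many near-identical copies in the genome. Of all 50-base stretches in the GENCODE transcripts of a member, the length of the reads, a median of 53.3% also occurred in a transcript of another gene. The median member shared stretches with 10 other genes, mostly pseudogenes, and 44 of 81 members had over 50% of their stretches shared. Rpl3l shared none. Rpl3 shared 85.6% with 26 other genes, all pseudogenes, none of which was matched to a gene row used here, so reads from these cannot be told from Rpl3 in the values.

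Rps6, the protein that S6 kinase phosphorylates, was the clearest case. Its own row held only 7.34 to 17.3 FPKM in sham (median 9.95) and 10.4 to 23.8 in MI_vehicle (median 21.7), the lowest mean of the family, on chromosome 4 at 86854099 to 86857367. A row named LOC105244208, which GENCODE lists as the processed pseudogene Rps6-ps4, shared 84.6% of the stretches of Rps6 and held 511 to 673 FPKM in sham, 625 to 1163 in MI_vehicle and 672 to 1124 in MI_DCA. Added together, both rows gave 583 ± 55.8 FPKM (SD, n = 6) in sham and 976 ± 193 in MI_vehicle, a level within the range of the other members. The log2 fold change of the sum was 0.72 (SE 0.14, adjusted p = 0.0010), that of the Rps6 row alone 0.78 (SE 0.22, adjusted p = 0.0086). In MI_DCA against sham the Rps6 row alone was not called (0.28, adjusted p = 0.39), whereas the sum was (0.50, SE 0.14, adjusted p = 0.028). From which locus those reads came was not tested.

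Rps27, a zinc-binding protein of the small subunit, showed a split of another kind. Its transcript shared 98.6% of its stretches with the retrogene Rps27rt, and the rows traded level from library to library. In sham, Rps27 ran from 124 to 528 FPKM and Rps27rt from 241 to 686. In replicate 6 they were at 124 and 412, and in replicate 2 at 362 and 243. In MI_vehicle the coefficient of variation was 27.4% for Rps27, 30.1% for Rps27rt and 12.98% for their sum. The sum was 694 ± 257 FPKM (SD, n = 6) in sham, with 1214 in replicate 1 and 536 to 621 in the others, and 739 ± 95.9 in MI_vehicle (log2 fold change 0.14, SE 0.18, adjusted p = 0.51). Neither row nor sum was called. Rpl37 and its copy Rpl37rt, which shared 31.3% of the stretches, were added likewise: the rise of 0.89 for Rpl37 alone was 0.53 for the sum (adjusted p = 0.021). With 6 such copies added to their parents, 73 members were called higher and 1 lower after infarction, against 38.3% and 20.1% of all genes, and 35 and 0 in MI_DCA against sham, against 15.5% and 8.36%.

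**Figure D4:**
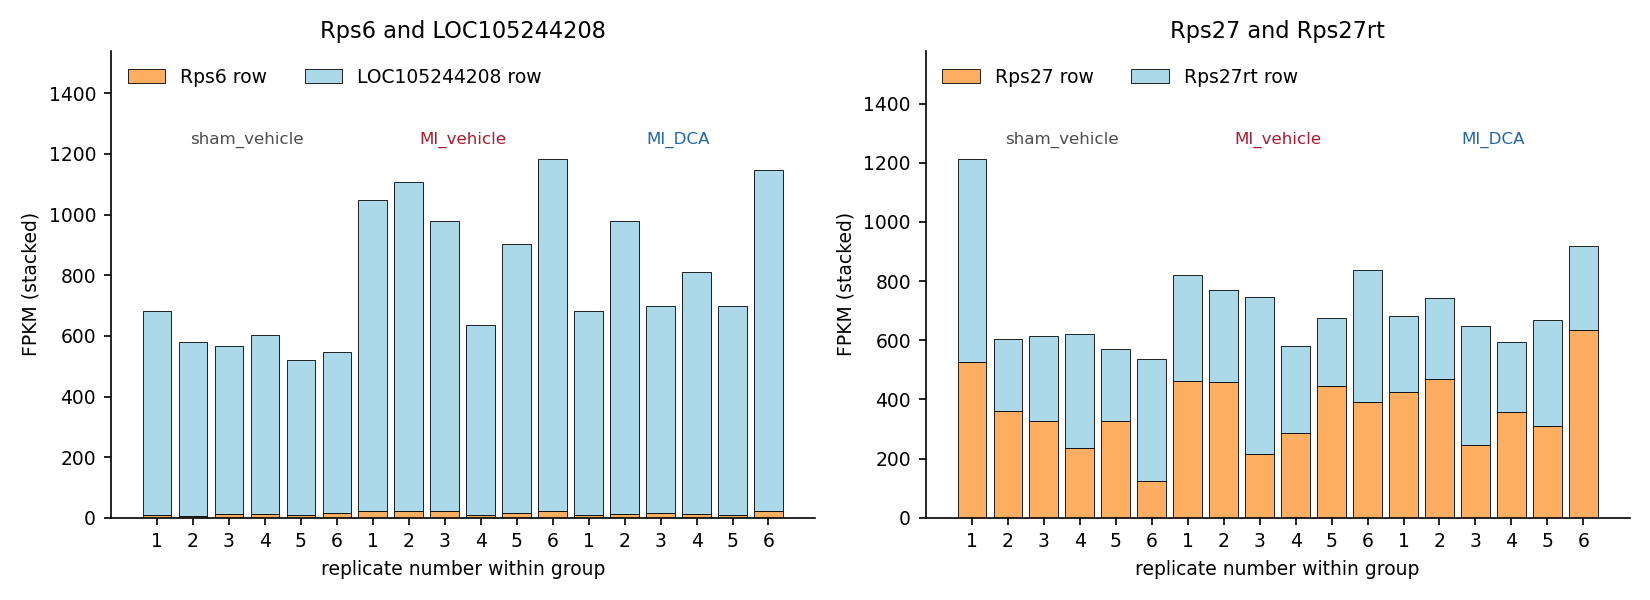
FPKM of Rps6 and its copy row LOC105244208 (left) and of Rps27 and its copy row Rps27rt (right), stacked for each of the 18 libraries. The Rps6 row is a thin base of 7.34 to 23.8 FPKM under the copy row, while Rps27 and Rps27rt take changing shares of each library's bar.

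Transcript lengths were looked at because the members are short, with a median of 833 bases against 2858 for all genes tested, and 55 of 81 up to 1000 bases. Other genes of up to 600 bases were called lower more often than higher in MI_vehicle against sham (41.1% against 26.4%, median -0.21, 129 genes). The 23 members of that length were higher in 78.3% (median 0.53). From 600 to 1000 bases the medians were 0.60 for 32 members and 0.01 for 562 other genes. From 1000 to 2000 bases they were 0.60 for 21 members and 0.13 for 2663 others.

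The members varied together. The Pearson correlation of each member's log2(FPKM + 1) with the mean of the other members had a median of 0.955 over the 18 libraries, 0.961 over the 12 infarcted ones and 0.862 over the 6 sham ones, as a description of libraries that share depth and composition. Rpl3l was the only negative member over 18 libraries, at -0.883, and Rps29 (0.478), Rps27 (0.516) and Rps6 (0.711) were the lowest of the others. Among 5968 other genes averaging 10 FPKM or more, those most like the family mean were the copy row LOC105244208 (r = 0.982), Ppia, the cyclophilin A gene often used as a reference (0.972), Rpl36al (0.970), Sec61b of the protein channel of the endoplasmic reticulum (0.965) and Rack1, which is bound to the small subunit (0.964). Those most like Rpl3l were Map1lc3b, the autophagy gene LC3B (0.982), Rab12 (0.981), Gstk1 (0.980), Gstm1 (0.979) and Foxo4 (0.979).

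Genes that build ribosomes were mostly higher after infarction. The shares to read the following lists against are those of all genes in that comparison, 38.3% called higher and 20.1% lower, or 28.2% and 28.7% with median-ratio size factors. Of 48 ribosome biogenesis factors 43 were called higher in MI_vehicle against sham and 0 lower (median 0.67; the same counts with median-ratio size factors), among them Nhp2, a protein of the H/ACA particles (15.5 ± 2.66 to 47.9 ± 17.3 FPKM, 1.49, SE 0.23), Eif6, which keeps the new large subunit from joining too early (16.8 ± 2.95 to 52.8 ± 23.8, 1.47, SE 0.27), and Grwd1 (1.19, SE 0.18). Of 15 genes for ribosomal RNA synthesis 11 were higher and 1, Taf1a, lower (median 0.39), or 8 and 1 with median-ratio size factors (median 0.26) and 6 and 1 with quantile scaling (median 0.23). Myc, the transcription factor that drives ribosome production, led that list (4.26 ± 0.887 to 22.3 ± 10.7 FPKM, 1.98, SE 0.33). Of 6 ribosomal proteins with other symbols or retrogene names 3 were higher and 0 lower: Rpl36al (0.83, SE 0.17), Rack1 (0.78, SE 0.13) and Fau (0.46, SE 0.11). The adjusted p of the genes named here ranged from 0.00022 to 0.030, and means are with SD over 6 libraries.

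Translation factors were more mixed. Of 35 initiation factors 18 were higher and 3 lower (median 0.20), or 13 and 6 with median-ratio size factors (median 0.07). The helicase Eif4a1 (1.24, SE 0.21) and the poly(A)-binding protein Pabpc1 (0.95, SE 0.17) were among the first, and Eif4a2 (-0.33, SE 0.10), the cap-binding protein Eif4e (-0.31, SE 0.09) and Eif1 (-0.18, SE 0.07) were the others. Of 10 genes in the elongation factor list 5 were higher, and Eef1a2 was lower (-0.43, SE 0.14). The counts were the same, 5 and 1, with median-ratio size factors. The higher ones included Eef1a1 (0.79, SE 0.14) and Eef1e1 (1.36, SE 0.23), which despite its symbol is not itself an elongation factor. Of 16 other TOP mRNAs 9 were higher and 0 lower (median 0.42), or 8 and 3 with median-ratio size factors (median 0.27) and 9 and 1 with quantile scaling (median 0.34). Most of these TOP genes, such as Pabpc1, Eef1a1 and Rack1, also stand in the other lists, so the counts are not separate. Of 22 genes of mTORC1 and S6 kinase signalling 7 were higher and 4 lower (median -0.02), or 3 and 6 with median-ratio size factors (median -0.15): the translation repressor Eif4ebp1 rose (0.78, SE 0.15) and the mTORC1 inhibitors Sesn1 (-1.29, SE 0.26), Ddit4 (-0.82, SE 0.29) and Deptor (-0.56, SE 0.09) fell. The inhibitors did not all fall: Sesn2 was called higher (0.50, limma adjusted p = 0.0037). Among 18 genes of nascent chain handling 11 were higher and 0 lower (9 and 1 with median-ratio size factors), led by Sec61b (1.24, SE 0.23) and Sec61a1 (1.11, SE 0.15), and among 11 of ribosome quality control 5 were higher and 1 lower (4 and 2 with median-ratio size factors). The shares called higher in the mTORC1 and quality control lists lay near that of all genes, and those in the initiation and elongation lists lay only somewhat above it. The largest limma adjusted p of a gene named here was 0.0498, that of Eif1.

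Genes for the mitochondrial ribosome were more often lower than higher. Of 78 such genes 9 were higher and 24 lower in MI_vehicle against sham (median -0.09), or 5 and 39 with median-ratio size factors (median -0.23), with Mrpl42 at 613 ± 37.1 FPKM in sham and 361 ± 62.1 in MI_vehicle (SD, n = 6; -0.78, SE 0.11, adjusted p = 0.00016) and Mrps18b at 40.3 ± 2.58 and 73.5 ± 20.4 (0.80, SE 0.16, adjusted p = 0.0013). With DCA against MI_vehicle their median was 0.07, where that of the cytosolic members was -0.22, and no gene of either list was called. At an unadjusted p under 0.05 by limma, 7 mitochondrial genes were higher and 0 lower, against 1.6% and 9.22% of all genes. In the same comparison 47 of the 48 biogenesis factors were negative, against 64.8% of all genes (median -0.23 beside -0.06), and none was called, with 1 at an unadjusted p under 0.05 (higher).

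**Figure D5:**
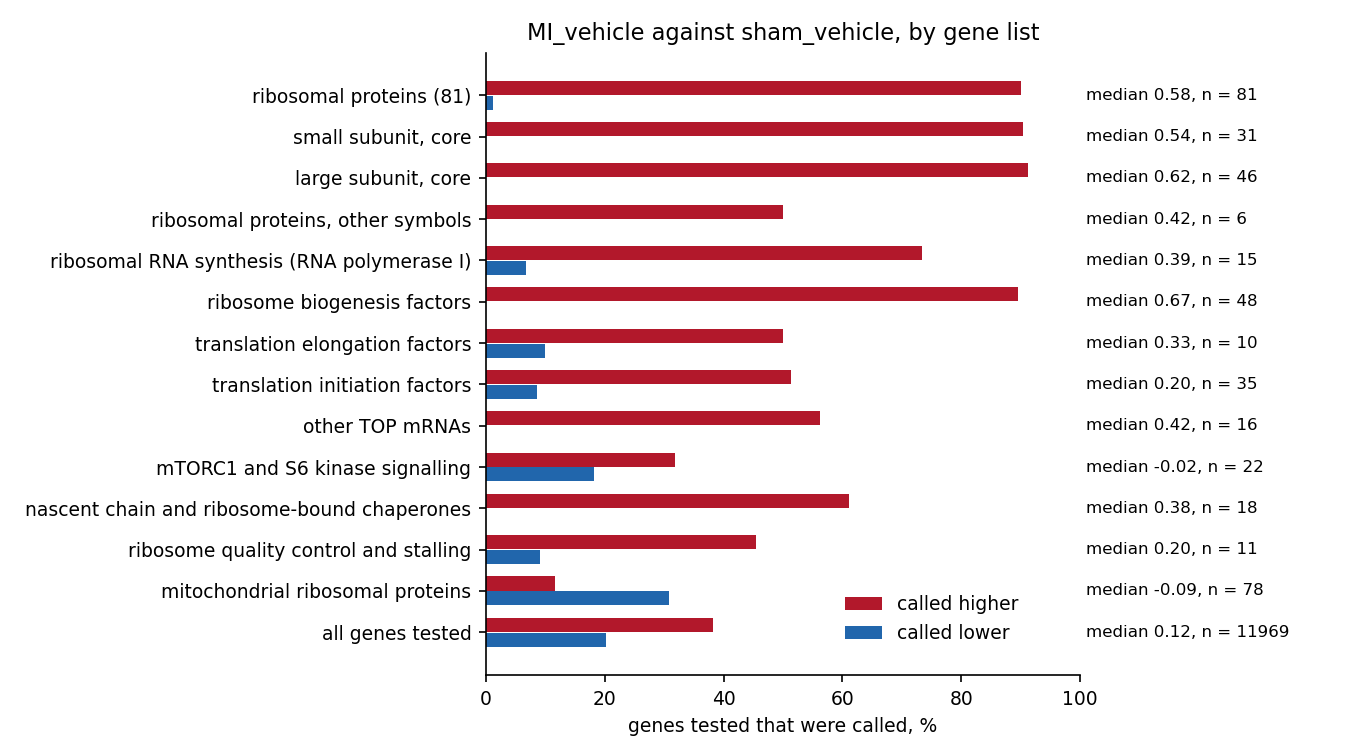
Share of the genes of each list called higher (red) or lower (blue) in MI_vehicle against sham_vehicle, with the median log2 fold change and the number tested at the right. The cytosolic ribosomal proteins (73 of 81 higher) and the biogenesis factors (43 of 48) stand above all genes tested (38.3% higher, 20.1% lower), and the mitochondrial ribosomal proteins have more genes lower (24) than higher (9).

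For 7 members, 2 transcripts each held a mean of at least 10% of the gene. Reads of 50 bases leave such splits to an estimate, so the shares are described only. For Rpl22l1 the transcript that was the minor one in sham held 35.7% ± 5.17 (SD, n = 6) there, 48.5% ± 16.3 in MI_vehicle and 47.5% ± 13.9 in MI_DCA, with ranges of 29.6% to 43.4%, 30.7% to 73.5% and 24.6% to 66.8%. For Rps28 the minor transcript held 23.9% ± 1.90 in sham, 29.6% ± 2.43 in MI_vehicle and 25.9% ± 4.33 in MI_DCA. For Rpl29 the minor transcript held 11.5% ± 3.33, 9.94% ± 1.19 and 12.2% ± 1.11.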

How the data were processed

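Libraries of mouse heart apex, 1 day after sham surgery or infarction, were grouped by the treatment in the labels into 3 groups of 6. The authors deposited FPKM per gene and per transcript for each library (26 gene symbols turned into dates were restored), and the GRCm38.p6 build, Bowtie2 (2.2.5), DESeq2 (1.4.5) and RSEM (1.2.12) are listed in the submitters' processing notes, which do not say which of them made the values. Within a library, FPKM multiplied by transcript length summed to nearly the same total (coefficient of variation 0.713%, against 3.50% for FPKM itself), as the unit requires. Sums of FPKM ran from 516273 to 584701 per library. FPKM is a share, so a rise of some genes lowers others, and scaling alternatives were run for that reason. Depth was searched between 8000000 and 16000000 reads from the steps between low values and is an estimate; it limits precision mostly below the levels of these genes. Transcripts of 345 to 5179 bases were compared, and short transcripts are the more sensitive to fragment size.

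Genes with at least 1 FPKM in at least 6 libraries of a comparison were tested as log2(FPKM + 1) with limma 3.58.1 in R 4.3.3 (moderated test with a mean-variance trend), fitted separately for each comparison, with Benjamini-Hochberg adjustment over all genes. The test was tried on simulated data with known changes. Ratios of paralogs were compared with two-sided exact permutation tests on the log2 ratio, adjusted over 18 tests. With 1 library left out, they were adjusted over the fewer tests of the comparisons that used that library. Those adjusted p are therefore not strictly comparable with the main ones. Tables were handled in Python 3.11.15 with pandas 2.3.3 and numpy 2.4.6. Coordinates and start sequences are from RefSeq GRCm38.p6. Shared 50-base stretches were counted between GENCODE M21 transcripts.

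The members and lists were chosen with earlier results of these data known. The named genes are the 8 largest and 8 smallest changes after infarction, all members not called there, the 5 smallest p in each direction with DCA (4 were higher), the 5 highest means, the genes of the paralog pairs, the member nearest the minimum mean, up to 3 called genes per list and direction, and the 5 genes most like the family mean or Rpl3l; Rplp0 and Rplp2 were named after their values were seen. Some genes that these rules name are not reported here. Alternatives were median-ratio and quantile scaling, a pseudocount of 0.1, no filter, a filter at 5 FPKM, all 18 libraries in 1 fit, the replicate number as a block, and each library left out. Adding copies to their parents and leaving out sham replicate 1 with MI_vehicle replicate 4 were chosen after seeing the data.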

Additional observations from a re-analysis of the deposited data

Results flagged for a closer look

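In each group of 6 libraries, a value is given here where the highest or lowest library lay apart from its nearest neighbour by over 0.625 of the group's range (Dixon's test at 95%). That held for 22 of 114 groups of values tested, where chance alone flags about 1 in 20, and the groups share libraries. No explanation was tested.

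Most of these values belonged to sham replicate 1, which was the highest sham library. Its FPKM, with the next sham library after it, was 557 against 464 for Rpl10, 51.9 against 29.1 for Rpl22l1, 333 against 217 for Rpl34, and 509 against 306 for Rpl35a. It was 109 against 64.2 for Rpl37, 361 against 215 for Rpl39, 956 against 640 for Rpl41, and 878 against 683 for Rplp1. It was 508 against 239 for Rps21, 723 against 468 for Rps26, and 739 against 485 for Rps29. Its summed FPKM of all members was 35960 against 27981, and its ratio of Rpl22l1 to Rpl22 was 0.589 against 0.425.

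MI_vehicle replicate 4 was the lowest of its group at 220 FPKM against 428 for Rpl3, 474 against 633 for Rpl7 and 492 against 682 for Rps4x, and its ratio of Rpl3l to Rpl3 was the highest, at 0.635 against 0.196. MI_DCA replicate 6 was the highest of its group at 1204 FPKM against 976 for Rpl23a and 118 against 81.1 for Rps27l. Sham replicate 6 had the lowest ratio of Rpl3l to Rpl3 in its group, at 0.835 against 1.21, and the highest ratio of Rps27l to Rps27, at 0.682 against 0.276. The latter ratio was also highest in MI_vehicle replicate 3, at 0.464 against 0.289; both libraries had the lowest Rps27 of their group, 124 and 216 FPKM.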

How the results depend on the processing

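After infarction the members called higher numbered 61 to 79 in all 21 alternatives and 68 to 78 with 1 library left out. The share of all genes called higher was 28.2% at 61 (median-ratio size factors) and 41.4% at 79 (sham replicate 1 and MI_vehicle replicate 4 left out). It was 36.2% at 68 (without sham replicate 2) and 36.9% at 78 (without sham replicate 1). This share ran from 26.6% (quantile scaling) to 42.0% (without MI_vehicle replicate 4), with 76 members called in each of these fits. Rpl3l was the one called lower in each alternative, against 14.2% to 30.9% of all genes. No member was called with DCA against MI_vehicle in 20 alternatives. The 34 members called higher in MI_DCA against sham (15.5% of all genes) became 19 with median-ratio size factors (11.4%), 20 without a filter (7.84%), 8 with the replicate number as a block (9.49%), and 5 (6.27%, without sham replicate 5) to 55 (11.9%, without sham replicate 1) with 1 library left out, and 0 to 1 were then called lower. With the block, and without sham replicate 5, the members were called about as often as any gene. The log2 ratio of Rpl3l to Rpl3 against sham, at -2.81 for MI_vehicle and -1.75 for MI_DCA, kept its value with the replicate block, but not its call (adjusted p = 0.11 for both). Both raw p were 0.03125, the smallest that sign flips of 6 pairs can give, so the number of pairs sets this loss and it says nothing about stability. With 1 library left out it ran from -3.20 to -2.64 and from -2.02 to -1.47, and the MI_DCA call was then lost in 8 of 12 cases. Replicate numbers gave mixed signs of pairing. Deviations of same-numbered libraries correlated at -0.05 to 0.14 (MI_vehicle and sham), -0.45 to 0.69 (MI_DCA and MI_vehicle) and -0.09 to 0.24 (MI_DCA and sham). For MI_DCA and MI_vehicle, 4 of the 6 pairs were above 0.1, while replicates 1 and 4 were at -0.45 and -0.40. In each comparison 1 library of 6, replicate 6, correlated best with its own number. Whether libraries were paired was not tested further. The block left 73 members higher after infarction. The 34 named members and the other ratios were also followed through the alternatives. In MI_DCA against MI_vehicle no named member was called in any fit, so all values of these members there count as kept. In total 2154 values kept their side of the threshold, 56 gained and 74 lost a call, and no called value changed sign. The cause of these changes was not tested. Depth is known only as an estimate. For 44 members over 50% of the 50-base stretches occurred in other genes, and for 4 members in genes matched to a row used here.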
